A study of Homo sapiens with 6 samples.

Results

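The tumour necrosis factor (TNF) superfamily was examined in RNA from BT20, a breast cancer line of basal, triple negative type, in which cytokeratin 5 (gene KRT5) had been knocked down. The members are the rows of the gene count table whose symbol begins with TNFSF or TNFRSF and a digit, together with TNF, LTA, LTB, LTBR, FAS, FASLG, CD40, CD40LG, CD27, CD70, NGFR, EDAR, EDA2R and RELT. They number 47 of the 56478 gene rows: 17 ligands, 8 death receptors, 21 other receptors and the readthrough transcript TNFSF12-TNFSF13. The libraries were 3 controls with a control hairpin (shControl, vector pLK0-shControl) and 3 knockdown libraries with a hairpin against KRT5 (shCK5-22, vector pLK0-shCK5-425222). All were grown in DMEM/F12 with fetal bovine serum and had no further treatment. Each arm has 1 hairpin in 1 cell line, and no label says whether the libraries of an arm came from separate cultures, so every p-value rests on the variation among these 6 libraries, which may be technical.

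Ligands of the family are mostly trimeric membrane proteins, some of them shed by proteases, that cluster receptors on the target cell. Death receptors carry an intracellular death domain that can recruit FADD and caspase 8, or TRADD and RIPK1. The other receptors bind TRAF adaptors and signal to NF-kB and stress kinases, and decoy receptors bind ligand without a complete signalling tail. In the breast the family is known for TNFSF11 and its receptor TNFRSF11A, which act in mammary gland development, and for TRAIL (TNFSF10), studied as an inducer of tumour cell death.

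The libraries held between 47622067 and 65429616 counts in gene rows, and a count of 3 in a library, taken as the floor, corresponded to between 0.046 and 0.0624 CPM (the count scaled to the TMM-adjusted library size). KRT5 stood at 240 ± 8.58 CPM in shControl and 22.6 ± 1.52 CPM in shCK5-22 (SD, n = 3 each), so the libraries matched their labels. Epithelial markers (KRT8, KRT18, KRT19, EPCAM, CDH1, EGFR) summed to between 9315 and 9704 CPM in shControl and between 8541 and 9013 CPM in shCK5-22. ESR1, an oestrogen receptor gene, had means of 14.5 and 11.5 CPM in the controls and the knockdown, and PGR, the progesterone receptor, 0.059 and 0.035 CPM, at the floor. The 10 leukocyte markers summed to at most 3.83 CPM in any library, with MS4A1 and CD68 listed at 0 throughout, and PTPRC, the pan-leukocyte antigen, had a mean of 0.404 CPM in shControl and 0.238 CPM in shCK5-22. One knockdown library stood apart: shCK5-22 replicate 1 differed from replicates 2 and 3 by a chi-square per degree of freedom of 33.7 and 19.8, against 5.08 between replicates 2 and 3 and at most 4.88 between shControl libraries. Counts of called members and of called signalling genes, and single calls of members, are given with and without it where they change. Counts of 2-fold changes, of groups without overlap and of signalling genes by function are given only with it. Between 86.7% and 89.1% of the counts from 1 to 20 in a library were even numbers, and whether such a count stands for fewer independent fragments was not tested.

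Promoter stretches are shown for members that moved and that bear on the comparison by position or motif. TNF and LTB are neighbours that rose together, TNFRSF9 had the greatest rise of the family, and TNFSF10 was the ligand that fell. Sequences are RefSeq's for GRCh38.p14, written 5′ to 3′ on the gene's strand, with motif matches in capitals. A kappa B match (the consensus bound by NF-kB, 10 letters: GGG, then RNNYY, then CC) was searched on both strands in the 250 bases before each start. So was an interferon-stimulated response element core (GAAA, then NN, then GAAA). R is A or G, Y is C or T, N is any base, and only exact matches were counted. The TNF stretch is chr6:31575315-31575564 on the plus strand. It holds no exact match to either motif, and near matches were not searched for, so it may still hold sites of either kind. The TNFRSF9 stretch is chr1:7940894-7940923 on the minus strand, where 2 overlapping kappa B matches begin 74 and 73 bases before the start. The LTB stretch is chr6:31582492-31582521 on the minus strand, with 1 kappa B match. The TNFSF10 stretch is chr3:172523508-172523680 on the minus strand, with 1 response element core that begins 187 bases before the start.
TNF: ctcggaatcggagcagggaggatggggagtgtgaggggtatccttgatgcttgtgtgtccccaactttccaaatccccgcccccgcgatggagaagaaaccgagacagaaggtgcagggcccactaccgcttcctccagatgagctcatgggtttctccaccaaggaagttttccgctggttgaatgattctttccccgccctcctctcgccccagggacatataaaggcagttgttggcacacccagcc
TNFRSF9: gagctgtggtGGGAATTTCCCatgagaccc
LTB: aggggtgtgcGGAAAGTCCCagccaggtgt
TNFSF10: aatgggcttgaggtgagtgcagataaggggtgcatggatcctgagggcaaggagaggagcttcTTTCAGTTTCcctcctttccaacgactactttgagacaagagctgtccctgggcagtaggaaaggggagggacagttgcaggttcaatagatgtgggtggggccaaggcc

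RefSeq windows were found for 30 of the 47 members. Of the 7 members with a window that rose, 3 held a kappa B match (LTB, TNFRSF9 and TNFRSF19), and of the 5 that fell 0 did. A match was also held by 2 of the 8 tested members without a call and 4 of the 10 untested members. In all, 9 of the 30 held one, so matches were not particular to members that rose. Over all genes with a window, 11.8% held a kappa B match and 3.71% a response element core. A response element core was present in 1 of the 7 that rose (TNFRSF1B) and in 1 of the 5 that fell (TNFSF10). These matches describe the letters of a short window and were not tested for binding. The kappa B and response element matches do not overlap in any printed stretch.

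Knockdown libraries had higher levels of TNFRSF9, LTB and TNF among others, and lower levels of the receptors that make up most of the family's transcripts. After the filter on low counts 31 members were tested, and 17 of them changed (54.8%), 10 higher and 7 lower, where 34.2% of all genes tested changed (17.4% higher and 16.8% lower; edgeR quasi-likelihood test, adjusted p under 0.05 over 18008 genes). The median log2 fold change was 0.08 over the tested members and -0.01 over all genes, and the median size regardless of sign was 0.35 and 0.18. At least 2-fold changes were found for 5 members (TNFRSF9, TNF, LTB, TNFRSF1B and TNFSF8), all higher, where 3.56% of all genes changed by that much and 1.62% rose by that much. The TNFRSF1B and TNFSF8 calls were lost without shCK5-22 replicate 1. The filter asked for about 0.162 CPM in 3 libraries, and 26 members met it in the controls alone, of which 8 rose and 7 fell. The other 5 (TNF, TNFSF8, TNFSF4, CD70 and TNFRSF13C) entered only with the help of knockdown libraries. TNF reached that level in 0 controls, so it could enter the test only by being higher in the knockdown, and its place in these counts is no support for a direction. Of the 7 members that fell, 6 had a mean of at least 5 CPM in shControl. The groups did not overlap for 12 members that were higher and 8 that were lower in shCK5-22, where 45.1% of all genes tested did not overlap. Without shCK5-22 replicate 1, 14 members changed, 7 in each direction, where 6185 of 18465 genes tested changed. In bulk RNA fewer cells of a type and less RNA per cell cannot be told apart. Several members are best known from leukocytes, and the leukocyte marker sum was between 1.93 and 3.00 CPM in the controls and between 3.07 and 3.83 CPM in the knockdown, with ITGAM, the 1 marker above 1 CPM in a group mean, at 0.928 and 2.22 CPM. The 4 fibroblast markers summed to between 31.3 and 32.7 CPM in the controls and between 28.0 and 29.1 CPM in the knockdown, mostly COL1A1, which fell, while PDGFRB (0.0518 and 1.08 CPM) and LUM (0.101 and 0.373 CPM) rose and DCN stayed at or under 2 counts. The part of these markers in the results was not tested.

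**Figure D1:**
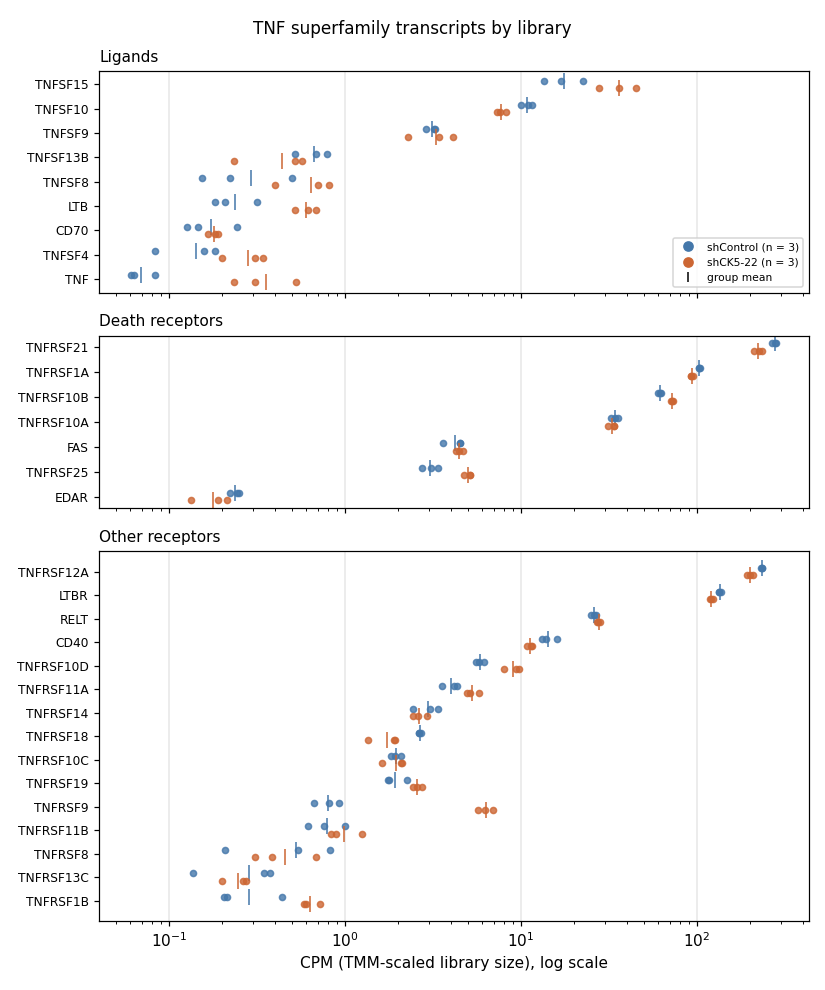
CPM on a log scale in each of the 6 libraries for the 31 tested members, by role, with a bar at each group mean (n = 3). TNFRSF9 lies between 0.666 and 0.92 CPM in shControl and between 5.74 and 6.93 CPM in shCK5-22, the widest separation among the members plotted.

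Levels of different members are compared here per kilobase of merged exons, while sums, shares and ratios of CPM given elsewhere are not scaled to length. In shControl the order began with TNFRSF12A at 126 ± 1.14 CPM per kb and TNFRSF21 at 76.9 ± 2.06 CPM per kb (SD, n = 3). TNFRSF1A and LTBR followed at 25.8 ± 0.215 and 21.5 ± 0.421 CPM per kb, an order that turned when the longest transcript was used as the length (46.5 and 57.9 CPM per kb). TNFRSF10B and TNFRSF10A stood at 11.9 ± 0.25 and 11.5 ± 0.59 CPM per kb and did not differ beyond their spread on this scale. With the longest transcript as the length they lay farther apart, at 14.81 and 12.55 CPM per kb. TNFRSF10A shares 16.6% of its exon bases with genes on the opposite strand, against 1.3% for TNFRSF10B. The effect of this on their levels was not tested. The ligands with the highest levels per kilobase were TNFSF10 at 3.13 ± 0.226 and TNFSF15 at 2.24 ± 0.575 CPM per kb in shControl. In shCK5-22 that order was the other way round, with TNFSF15 at 4.60 ± 1.08 and TNFSF10 at 2.22 ± 0.136 CPM per kb. TNFRSF9 was at 0.126 ± 0.0201 CPM per kb in shControl, rank 24 of the family, and at 0.997 ± 0.0941 CPM per kb in shCK5-22. Receptors thus filled the first 8 ranks in shControl.

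**Figure D2:**
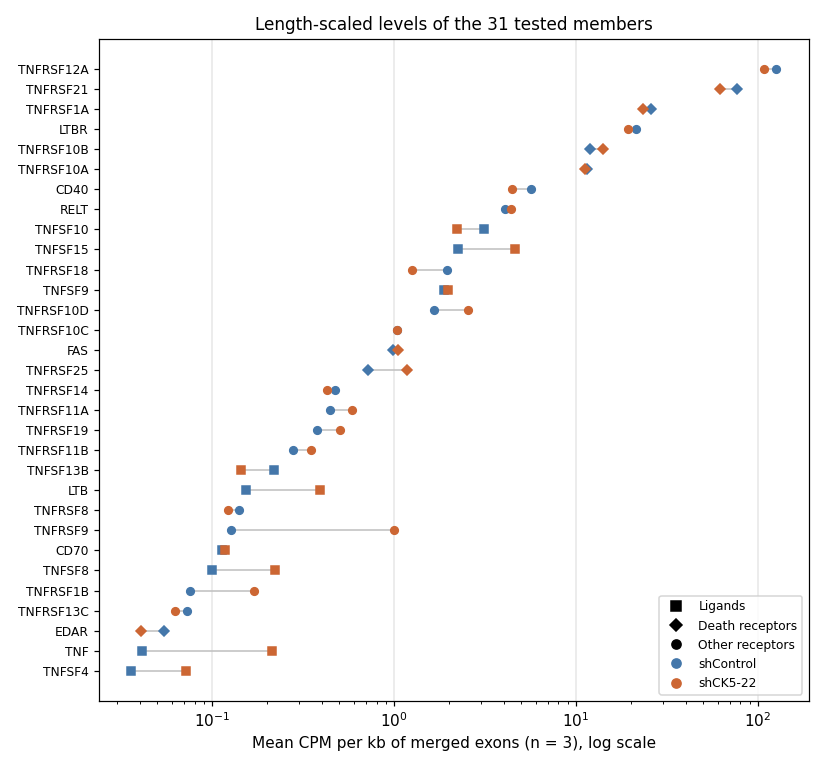
Mean CPM per kilobase of merged exons on a log scale for the 31 tested members, ordered by the shControl mean (n = 3 libraries a group; symbols mark the role, a grey line joins the group means). TNFRSF12A leads at 126 CPM per kb in shControl, and TNFRSF9 moves from 0.126 to 0.997 CPM per kb.

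TNFRSF21, TNFRSF12A, LTBR and TNFRSF1A together held 79.0% ± 0.162 of the family's summed CPM in shControl and 73.0% ± 0.63 in shCK5-22. The family sum was 957.5, 935.0 and 944.7 CPM in controls 1, 2 and 3, and 891.1, 843.9 and 883.8 CPM in the knockdown libraries. Without those 4 receptors the sum was 198.6 ± 1.24 CPM in the controls and 236.1 ± 12.1 CPM in the knockdown (SD, n = 3 each). The total was therefore lower in every knockdown library, and the remainder was higher in every one. The 4 receptors set aside have the highest CPM in shControl, and all of them fell. A large part of the remainder's rise is TNFSF15 alone, which missed the threshold (17.7 CPM in the controls and 36.3 CPM in the knockdown). A 2-sided exact permutation test cannot go below 0.1 with 3 libraries against 3.

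Among ligands TNF and LTB rose, TNFSF8 rose in a call that single libraries decide, and TNFSF10 fell. Of the 17 ligands 9 passed the filter, and 4 of these changed, 3 higher and 1 lower, a share of 44.4% beside 34.2% of all genes. Of the 3 that rose, only LTB met the filter in the controls alone. TNF and TNFSF8 entered with the help of knockdown libraries, so their place in this count is no support for a direction. Without shCK5-22 replicate 1, 3 ligands changed. TNF, the cytokine that gives the family its name, had 4, 4 and 4 counts in shControl and 20, 14 and 28 in shCK5-22. All of these counts are even. Its level rose from 0.0693 ± 0.0121 to 0.357 ± 0.154 CPM (SD, n = 3 each), a log2 fold change of 2.34 (SE 0.56, adjusted p = 0.00231), and the groups did not overlap. TNF lies at chromosome 6, 31575567 to 31578336 (GENCODE 29, GRCh38). When all counts were halved, a setting chosen after seeing the data, TNF no longer passed the filter.

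LTB, the membrane-bound partner of LTA in the lymphotoxin heterotrimer, had 10, 12 and 20 counts in shControl and 40, 31 and 36 in shCK5-22. That is 0.208, 0.184 and 0.317 CPM against 0.613, 0.518 and 0.681 CPM, with no overlap and a log2 fold change of 1.34 (SE 0.37, adjusted p = 0.00714). LTA, lymphotoxin alpha, had 1, 2 and 2 counts in shControl and 6, 10 and 8 in shCK5-22, too few for the filter. With no filter LTA had an adjusted p of 0.153 (edgeR). LTA, TNF and LTB lie side by side on chromosome 6, 1242 bases between LTA and TNF and 2188 bases between TNF and LTB. In 22.8% of all genes tested the knockdown libraries lay higher without overlap. LTA was not tested, and TNF could enter the test only by being higher in the knockdown. With those limits, all 3 ligands had more counts in every knockdown library than in any control library. The tested protein-coding genes next to them moved less: NFKBIL1, 16.7 kb from TNF, had a log2 fold change of 0.13 (adjusted p = 0.121), and PRRC2A, 38.2 kb from LTB, rose by 0.13 (adjusted p = 0.00104).

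TNFSF15 (TL1A), a ligand known from endothelial cells and gut inflammation, was the ligand with the most counts. Controls 1, 2 and 3 had 22.5, 13.5 and 17.0 CPM, and knockdown libraries 1, 2 and 3 had 44.8, 27.8 and 36.3 CPM. Every knockdown library lay above every control library, but both groups were wide. The log2 fold change of 1.05 (SE 0.28, 95% interval 0.28 to 1.83) missed the threshold, with adjusted p = 0.0545 in edgeR, between 0.00146 and 0.166 over the alternatives without a replicate term. It passed in DESeq2 (0.00146), under the stricter 1 CPM filter (0.0448) and with halved counts (0.0484). Without shCK5-22 replicate 1, the library with the highest TNFSF15 level, the log2 fold change was 0.87 (adjusted p = 0.119). The 3 endothelial markers summed to between 23.11 and 31.03 CPM in the controls and between 18.9 and 30.7 CPM in the knockdown; PECAM1 fell from 5.02 to 2.15 CPM (adjusted p = 0.0429), CDH5 (21.2 and 22.2 CPM) and VWF did not pass, and their part in the TNFSF15 values was not tested. TNFSF15 made up 52.4% ± 5.25 of the summed ligand CPM in shControl and 72.0% ± 3.6 in shCK5-22. These shares are not scaled to length, and per kilobase TNFSF10 stood above TNFSF15 in shControl (3.13 and 2.24 CPM per kb).

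TNFSF8 (CD30 ligand) lies 87216 bases from TNFSF15 on chromosome 9. It had 24, 10 and 14 counts in shControl and 46, 24 and 43 in shCK5-22, or 0.499, 0.153 and 0.222 CPM against 0.705, 0.401 and 0.813 CPM. The groups overlapped, because shControl replicate 1 lay above shCK5-22 replicate 2. The log2 fold change was 1.18 (SE 0.42, adjusted p = 0.0343 in edgeR, between 0.0078 and 0.161 over the alternatives). The call was lost without shControl replicate 2 (0.161), shControl replicate 3 (0.14), shCK5-22 replicate 1 (0.078) or shCK5-22 replicate 3 (0.149), and without shControl replicate 1 the log2 fold change was 1.75. TNC, the tested neighbour beyond TNFSF8, stood at 1002 CPM in the controls and 1001 CPM in the knockdown, with no call.

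TNFSF10 (TRAIL), which binds TNFRSF10A and TNFRSF10B to trigger apoptosis and is induced by interferon, was lower in the knockdown. Its level was 10.9, 10.1 and 11.6 CPM in shControl and 7.30, 8.23 and 7.64 CPM in shCK5-22. The groups did not overlap, and the log2 fold change was -0.49 (SE 0.086, adjusted p = 0.000117), a 1.41-fold lower level. TNFSF10 (chromosome 3, 172505508 to 172523507) shares no 50-base window with transcripts of other genes.

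The other tested ligands did not pass the threshold. TNFSF9, the ligand of TNFRSF9, measured 3.24, 2.88 and 3.20 CPM in the controls against 4.11, 2.27 and 3.44 CPM in the knockdown (log2 fold change 0.08, 95% interval -0.29 to 0.45), and its direction turned without shCK5-22 replicate 1 (-0.13). TNFSF13B (BAFF), TNFSF4 (OX40 ligand) and CD70 had means under 1 CPM in both groups, with log2 fold changes of -0.60, 0.94 and 0.04 and intervals that include 0. The remaining 8 ligands had at most 10 counts in any library. Of these, TNFSF18 and CD40LG were listed at 0 in every library. TNFSF12 and TNFSF13 share 29.4% and 55.5% of their exon bases with TNFSF12-TNFSF13, which was listed at 0, so their counts of 0 to 6 are uncertain.

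**Figure D3:**
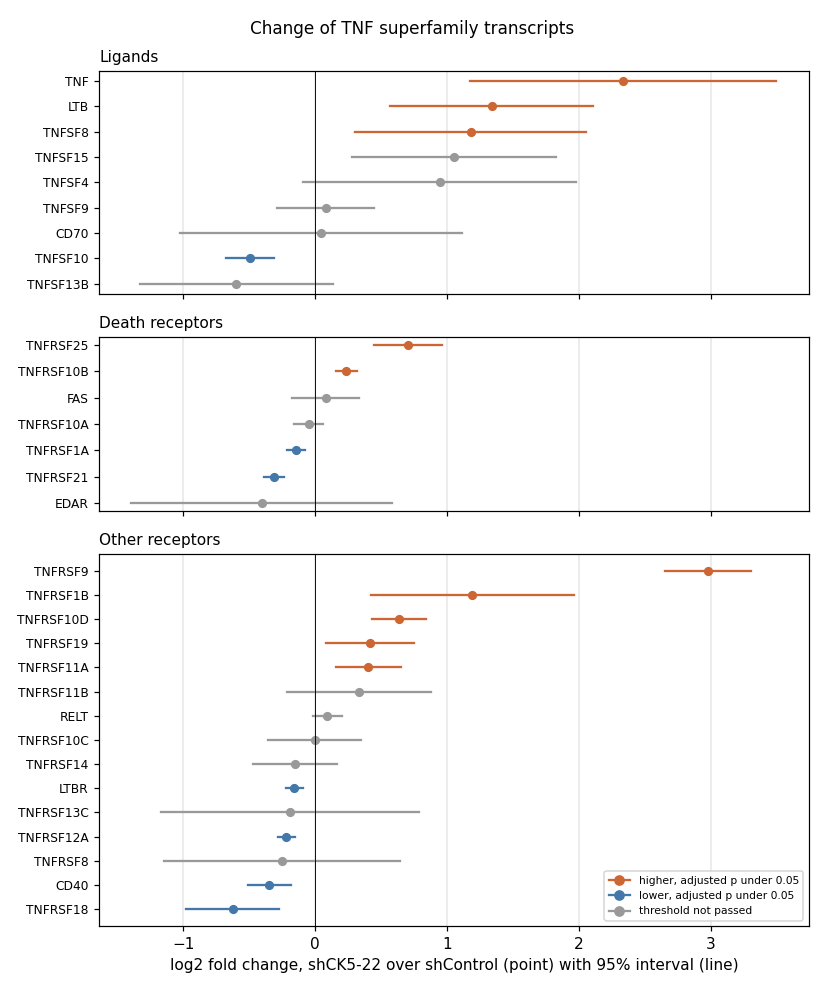
Log2 fold change of shCK5-22 over shControl with its 95% interval for the 31 tested members, by role (orange passed the threshold higher, blue lower, grey not). TNFRSF9 at 2.98 and TNF at 2.34 lie farthest to the right, and no member that fell lies below -0.63.

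Death receptors went both ways in small steps. Of the 8, 7 passed the filter, and 2 rose (TNFRSF25, TNFRSF10B) and 2 fell (TNFRSF21, TNFRSF1A), under edgeR and each of the alternatives run. That is a share of 57.1%, beside 34.2% of all genes. TNFRSF21 (DR6), a receptor studied in neurons and T cells and the member with the highest CPM, stood at 282, 268 and 279 CPM in shControl and 234, 210 and 224 CPM in shCK5-22. Its log2 fold change was -0.31 (SE 0.035, adjusted p = 8.43e-07). TNFRSF1A, the main TNF receptor of most cells, measured 103.2, 102.4 and 104.2 CPM in the controls against 95.04, 92.39 and 92.39 CPM in the knockdown, a 1.11-fold lower level (adjusted p = 0.00132). For both receptors each knockdown library lay below each control library.

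TNFRSF10B (DR5), a death receptor for TRAIL, was slightly higher. It measured 60.1, 62.7 and 61.5 CPM in the controls against 71.5, 72.5 and 73.2 CPM in the knockdown, a 1.18-fold higher level with no overlap (adjusted p = 3.4e-05). TNFRSF10A (DR4), the other TRAIL death receptor, measured 34.2, 35.8 and 32.3 CPM in the controls against 33.6, 31.2 and 34.0 CPM in the knockdown. Its groups overlapped and its log2 fold change of -0.05 (95% interval -0.16 to 0.06) did not pass the threshold.

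TNFRSF25 (DR3), the receptor of TNFSF15, measured 2.72, 3.39 and 3.08 CPM in the controls against 5.15, 4.75 and 5.15 CPM in the knockdown. The groups did not overlap, and the level was 1.63-fold higher (log2 fold change 0.70, SE 0.12, adjusted p = 0.000121). Part of its exons (8.9%) overlaps ESPN on the opposite strand, which had 20 to 32 counts per library against 131 to 336 for TNFRSF25, and 2.4% overlaps PLEKHG5. FAS, the receptor of FASLG, measured 3.62, 4.52 and 4.49 CPM in the controls against 4.43, 4.28 and 4.71 CPM in the knockdown and did not pass the threshold. EDAR, which acts in hair and gland development, had 8 to 16 counts per library, and NGFR, the p75 neurotrophin receptor, at most 2.

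Among the other receptors TNFRSF9 stood out by the size of its rise, while TNFRSF12A, LTBR, CD40 and TNFRSF18 fell. Of the 21, 15 passed the filter, and 5 rose and 4 fell, a share of 60% beside 34.2% of all genes. Without shCK5-22 replicate 1, 3 rose and 4 fell. TNFRSF9 (4-1BB), a costimulatory receptor of activated T cells that signals through TRAF1 and TRAF2, had 39, 60 and 42 counts in shControl and 452, 343 and 332 in shCK5-22. That is 0.811, 0.92 and 0.666 CPM against 6.93, 5.74 and 6.28 CPM, a 7.89-fold higher level (log2 fold change 2.98, SE 0.16, adjusted p = 3.61e-12). The lowest knockdown library lay far above the highest control library, and without shCK5-22 replicate 1 the log2 fold change was 2.91. TNFRSF9 lies at chromosome 1, 7915894 to 7943165, minus strand. Its tested neighbours PARK7 (11.1 kb away) and ERRFI1 (61.2 kb away) had log2 fold changes of 0.04 and 0.00 and did not pass the threshold, and PER3 (70.7 kb away) fell by 0.27.

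TNFRSF1B, the second TNF receptor, rose from a low level. It had 21, 14 and 13 counts in shControl and 47, 36 and 31 in shCK5-22, or 0.437, 0.215 and 0.206 CPM against 0.72, 0.602 and 0.586 CPM, with no overlap. The log2 fold change was 1.19 (SE 0.37, adjusted p = 0.0154 in edgeR, between 0.0067 and 0.0807 over the alternatives). The call was lost without shControl replicate 2 (0.0732), shControl replicate 3 (0.0807) or shCK5-22 replicate 1 (0.0545). TNFRSF8, its neighbour 22.8 kb away, had a log2 fold change of -0.25 and did not pass the threshold.

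TNFRSF11A (RANK), the receptor of TNFSF11, measured 4.33, 3.56 and 4.15 CPM in the controls against 5.15, 4.97 and 5.79 CPM in the knockdown. The groups did not overlap and the level was 1.32-fold higher (adjusted p = 0.0114 in edgeR, between 0.00663 and 0.0767 over the alternatives), a call lost without shControl replicate 2 (0.0767) or shCK5-22 replicate 3 (0.0672). Its ligand TNFSF11 had 2 counts in 1 library and 0 in the other 5. TNFRSF19 (TROY), a receptor of epithelial progenitors and a Wnt target, measured 1.79, 1.75 and 2.25 CPM in the controls against 2.73, 2.44 and 2.57 CPM in the knockdown. Its adjusted p of 0.0493 (edgeR, log2 fold change 0.42) lay at the threshold and ranged from 0.0315 to 0.177 over the alternatives. The TNFRSF19 call was lost in DESeq2 (0.0707) and limma-voom (0.051), with library size only (0.0622) and with no filter (0.0654). It was also lost without shControl replicate 1 (0.145), shControl replicate 2 (0.177), shCK5-22 replicate 1 (0.123), shCK5-22 replicate 2 (0.061) or shCK5-22 replicate 3 (0.0956).

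Of the decoy receptors, TNFRSF10D rose. This receptor binds TRAIL with a truncated death domain. It measured 5.53, 5.76 and 6.20 CPM in the controls against 9.79, 9.38 and 8.02 CPM in the knockdown, a 1.55-fold higher level with no overlap (log2 fold change 0.64, SE 0.098, adjusted p = 2.77e-05). Its CPM was 9.21%, 9.20% and 10.08% of that of TNFRSF10B in shControl and 13.7%, 12.93% and 10.95% in shCK5-22. TNFRSF10C, the decoy anchored in the membrane by a lipid, measured 1.91, 2.08 and 1.84 CPM in the controls against 2.08, 2.11 and 1.63 CPM in the knockdown. It did not pass the threshold, and 35.4% of its 50-base windows occur in other genes. Osteoprotegerin (TNFRSF11B), the soluble decoy for TNFSF11 and TRAIL, had 40 to 66 counts per library and did not pass either. TNFRSF6B was listed at 0, and all of its exon bases lie within RTEL1-TNFRSF6B, so its count is uncertain.

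The receptors that fell were 2 abundant and 2 less abundant ones. TNFRSF12A, the receptor of TWEAK (TNFSF12), measured 234.3, 233.7 and 230.4 CPM in the controls against 192.3, 200.1 and 208.4 CPM in the knockdown, a 1.16-fold lower level (adjusted p = 1.38e-05). LTBR, the lymphotoxin beta receptor, which signals to noncanonical NF-kB, measured 137.8, 132.8 and 133.9 CPM in the controls against 123.6, 118.5 and 120.4 CPM in the knockdown, a 1.12-fold lower level (adjusted p = 0.000571). LTBR overlaps SCNN1A on the opposite strand in 6.7% of its exon bases, and SCNN1A had 316 to 407 counts in shControl and 146 to 178 in shCK5-22, against 6365 to 8664 for LTBR. For both abundant receptors the groups did not overlap.

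CD40, the receptor through which T cells activate antigen-presenting cells, measured 13.2, 16.0 and 13.9 CPM in the controls against 11.4, 10.9 and 11.6 CPM in the knockdown. It was 1.27-fold lower (log2 fold change -0.35, SE 0.079, adjusted p = 0.00152). TNFRSF18 (GITR), a costimulatory receptor of T cells, measured 2.70, 2.64 and 2.63 CPM in the controls against 1.35, 1.91 and 1.93 CPM in the knockdown, a 1.54-fold lower level (adjusted p = 0.00614). Both had every knockdown library below every control library. RELT measured 24.96, 26.70 and 25.96 CPM in the controls against 28.2, 27.2 and 27.4 CPM in the knockdown, and its log2 fold change of 0.09 (95% interval -0.02 to 0.20) did not pass the threshold. TNFRSF14, TNFRSF8 and TNFRSF13C did not pass either, and the 6 receptors outside the test, CD27, EDA2R, TNFRSF4, TNFRSF6B, TNFRSF13B and TNFRSF17, had at most 6 counts in any library.

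Of the 32 ligand and receptor pairs known to bind, 12 had both partners tested. In 1 pair, TNF with TNFRSF1B, both rose. In 4 pairs the partners went opposite ways: TNF rose and TNFRSF1A fell, LTB rose and LTBR fell, and TNFSF10 fell while TNFRSF10B and TNFRSF10D rose. In 0 pairs did both fall. These pairs share members and are listed as they were called, without a test over pairs. TNF could enter the test only by being higher in the knockdown, so its pairs are no support for a direction. The TNFRSF1B call was lost without shCK5-22 replicate 1.

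The genes that carry the signal from these receptors were counted from a list of 51. Of these 49 were tested, and 17 rose and 9 fell, a share of 53.1% where 34.2% of all genes changed (median log2 fold change 0.04, against -0.01 over all genes). The median size regardless of sign was 0.15, against 0.18 over all genes. Under the stricter 1 CPM filter 27 of 47 signalling genes passed the threshold, where 5948 of 13636 genes did. Without shCK5-22 replicate 1, 17 signalling genes rose and 11 fell, where 6185 of 18465 genes tested changed. Among 15 adaptors and ubiquitin ligases 5 rose and 1 fell, a share of 40% beside 34.2% of all genes. TRAF1, an adaptor bound by TNFRSF9 and TNFRSF1B and an NF-kB target, rose from 13.7 ± 1.28 to 41.7 ± 3.91 CPM, 3.04-fold (adjusted p = 2.6e-11). BIRC3 and BIRC2, the cellular inhibitors of apoptosis that ubiquitinate RIPK1, rose 2.13-fold and 1.39-fold. TRAF2 and TRAF3, their scaffold partners, rose by 0.17 and 0.46 in log2 terms, while RNF31, a linear ubiquitin ligase, fell by 0.23. TRADD and FADD had log2 fold changes of -0.11 and -0.16 and did not pass the threshold.

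**Figure D4:**
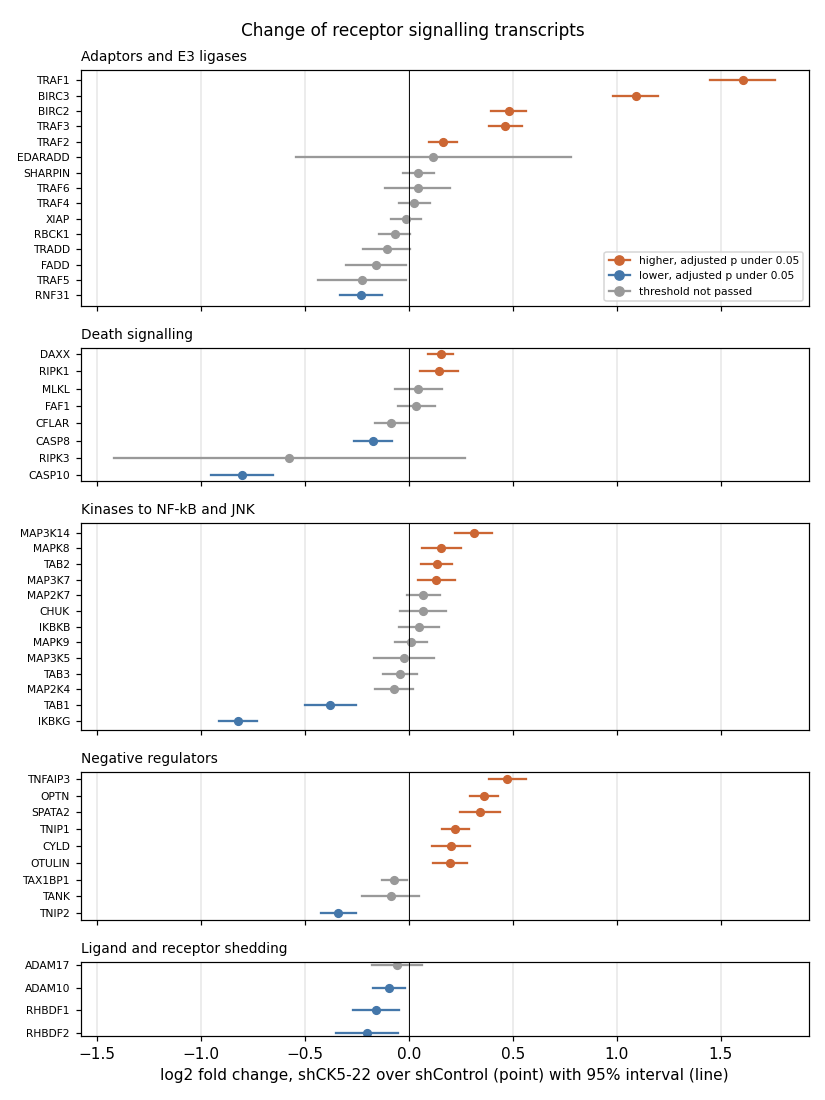
Log2 fold change of shCK5-22 over shControl with its 95% interval for the 49 tested receptor signalling genes, by function (orange passed the threshold higher, blue lower, grey not). TRAF1 at 1.60 and BIRC3 at 1.09 are the 2 genes with at least 2-fold changes, and IKBKG at -0.82 and CASP10 at -0.80 lie farthest to the left among those that passed.

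Among 8 tested genes of death signalling 2 rose and 2 fell, a share of 50% beside 34.2% of all genes. CASP10, an initiator caspase recruited by death receptors, fell from 16.6 ± 0.787 to 9.49 ± 0.339 CPM, 1.74-fold (adjusted p = 1.7e-08). CASP8, the main initiator caspase, fell by 0.17 in log2 terms, and CFLAR, which blocks it, had a log2 fold change of -0.08 and did not pass the threshold. RIPK1 and DAXX rose by 0.15 each. Of 13 kinases and kinase adaptors 4 rose and 2 fell (46.2%). MAP3K14 (NIK), the kinase of noncanonical NF-kB signalling, rose by 0.31, and TAB1, a subunit of the TAK1 complex, fell 1.30-fold. IKBKG, the regulatory subunit of the IKK complex, was 1.77-fold lower (adjusted p = 4.14e-12), but 32.6% of its 50-base windows occur in other genes, so its count is uncertain.

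Of 9 negative regulators 6 rose and 1 fell, where 17.4% of all genes rose and 16.8% fell. TNFAIP3 (A20), a deubiquitinase that ends TNF signalling, rose from 54.4 ± 1.65 to 75.6 ± 4.01 CPM, 1.39-fold (adjusted p = 2.03e-08), and CYLD and OTULIN, other deubiquitinases of the pathway, rose by 0.20 each. TNIP2, a partner of TNFAIP3, fell 1.26-fold. Of 4 tested genes of ligand and receptor shedding, 3 fell in small steps, where 16.8% of all genes fell: RHBDF2 by 0.20, RHBDF1 by 0.16 and ADAM10 by 0.10 (adjusted p = 0.0491). ADAM17, the sheddase of TNF, had a log2 fold change of -0.06 and did not pass the threshold. DIABLO and TIMP3 were listed at 0 in every library and were not tested, and DIABLO is a gene of most cells, so a 0 in this table does not show that a gene is silent.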

How the data were processed

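RNA was measured in 6 BT20 libraries, 3 per hairpin, grouped by title. The authors deposited a table of whole-number counts by gene. According to the submitters' processing notes, cutadapt, STAR, SAMtools and Cufflinks were used with build GRCh38. The counting program, annotation and strand setting: not given in the sources used here. Values of overlapping and near-identical genes are therefore uncertain. Of 56505 rows, 27 held a calendar date in place of a symbol and were left out (0.167% to 0.175% of a library's counts).

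The members, roles and gene lists were chosen with earlier results of these data known. Fits used edgeR 4.0.16 in R 4.3.3 (quasi-likelihood with robust estimation, TMM, filterByExpr), with two-sided p-values adjusted by the Benjamini-Hochberg method across the 18008 genes that passed the filter. Standard errors were derived from each F statistic, and 95% intervals from them. The fit was tested on simulated counts. Per-library values are given for members that passed the threshold or averaged at least 5 CPM in a group, with FAS, TNFSF9, TNFRSF10C and other names added after their values were seen. Signalling genes named by rule are the 4 greatest rises and 4 greatest falls averaging at least 5 CPM, and the rest were chosen after their values were seen. Exon lengths, positions, overlaps and shared 50-base windows come from GENCODE release 29, in which all 47 members matched 1 locus. No label pairs the libraries by replicate number, so the main fit held no replicate term. Correlations of same-numbered deviations over the tested genes were 0.0164, 0.0517 and -0.00678. These cannot decide whether the numbers pair the libraries, since counting error enters every deviation. Alternatives were RLE, upper quartile and no scaling, 2 other filters, DESeq2 1.42.0, limma-voom (limma 3.58.1), a replicate block, a threshold of 0.01, each library left out, and, chosen after seeing the data, halved counts. Floors cover counting error only.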

Additional observations from a re-analysis of the deposited data

How the results depend on the processing

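Over the alternatives run, between 13 and 18 of the tested members passed the threshold, against 17 in the edgeR test, with 7 lower in every setting. The number of all genes that passed moved as well, from 4382 at the threshold of 0.01 to 6743 with the replicate block, against 6153 in the edgeR test. With the replicate number as a block 18 members passed, 17 of them shared with the edgeR test, and 28 signalling genes, and TNFSF15 reached an adjusted p of 6.02e-13 (edgeR); no other member's call changed. The numbers share no stated origin and not every library correlated best with its own number. Leaving out 1 library gave between 13 and 16 members, 3 or 4 ligands, 4 death receptors, between 6 and 8 other receptors and between 21 and 28 signalling genes. Under the stricter filter, which asks for 1 CPM in each of 3 libraries, 2 ligands passed, because 3 ligands were tested. With halved counts 17 members passed, 16 of them shared, since TNF left the test and TNFSF15 passed. Of 449 recomputed fold changes of members, 417 kept their direction and their side of the threshold, 18 lost a call, 4 gained one (all TNFSF15) and 10 turned direction, none of them called in the edgeR test. These were TNFRSF10C with upper quartile scaling (0.0045), with halved counts (0.00014) and without single libraries (-0.062 to 0.11); FAS (-0.016 to 0.13), TNFSF9 (-0.13 to 0.29), CD70 (-0.14 to 0.40), TNFRSF8 (-0.64 to 0.23) and TNFRSF13C (-0.54 to 0.022) turned only when 1 library was left out. No scaling moved the median of all genes by more than 0.02. Of the 31 tested members, 10 had fewer than 20 counts in some library, and these limit what the test can call.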
